A study of Homo sapiens with 4 samples.

Results

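A set of 9 genes that carry growth signals downstream of interleukin 2 (IL-2) was followed in NK-92, an established line of human natural killer cells that needs IL-2 to grow. They were the kinase genes PIM1, PIM2 and PIM3, the transcription factor genes MYC and BCL6, the cyclin genes CCND2 and CCND3, and the cytokine genes OSM and LIF. The members were taken by symbol, and all 9 were found among the 20323 genes of the deposited table. Poly(A)-selected RNA had been sequenced from 4 libraries. NK scramble cells had received a lentivirus with a scrambled short hairpin, and NK shADAR1 cells a lentivirus with a hairpin against ADAR1, the RNA-editing enzyme that the gene ADAR encodes. Each group had 2 libraries, described by the submitters as biological replicates, and both groups were NK-92 cells grown with 100 IU/ml of recombinant human IL-2. The knockdown libraries are titled shADAR1-1 and shADAR1-2. The work also has 2 hairpins with exactly these names. Its text names shADAR1-2 cells alone as sequenced, without repeating this in its sequencing methods, so the final numbers were read here as replicate numbers. Depth was 39529705 and 39960491 estimated counts in NK scramble replicates 1 and 2, and 37881704 and 38552577 in NK shADAR1 replicates 1 and 2. Natural killer cell markers were detected in all libraries at very different levels. NKG7, a granule gene and the most abundant, was at 1326 and 1641 CPM (counts scaled to a common library size) in the control libraries against 1411 and 1557 CPM after knockdown. FCER1G, a signalling adaptor, was the scarcest at 69, 101, 90 and 109 estimated counts. All 12 marker genes of NK cells passed the count filter, and their summed CPM was 3937 and 4498 against 4408 and 4300. Pairs of values here and below are replicates 1 and 2, with NK scramble named as the control and NK shADAR1 as the knockdown.

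IL-2 binds a receptor that activates the kinases JAK1 and JAK3, and these phosphorylate the transcription factors STAT5A and STAT5B. Activated STAT5 enters the nucleus and binds short palindromic elements near its target genes. Among the targets are PIM kinases, which act as soon as they are translated and favour survival and protein synthesis, MYC, which drives ribosome production and cell growth, and D-type cyclins, which start the G1 phase of the cell cycle together with CDK4 and CDK6. OSM and LIF belong to the interleukin-6 family of cytokines, and OSM is a STAT5 target in blood cells. BCL6 is a transcriptional repressor that stands apart from the others, since STAT5 is known to lower it in lymphocytes rather than to induce it.

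Of the 9 genes, 8 had enough counts to be tested, and LIF did not. In NK shADAR1 cells the fitted level of 7 of these 8 was lower than in NK scramble cells, and that of BCL6 was higher. A gene was called where the quasi-likelihood test of edgeR gave a Benjamini-Hochberg adjusted p under 0.05 and the fold change was at least 1.5. No member was called, and neither was any other gene, with 0% of the 11810 tested genes called by edgeR (293 at an unadjusted p under 0.05) and 0 by DESeq2 (289 at an unadjusted p under 0.05). The study, in contrast, reported differentially expressed genes with DESeq2 at the same 2 thresholds. The reason for this difference was not tested. Every tested member had an adjusted p of 1.00 in edgeR. At an unadjusted p under 0.05 the test passed 1 of the 8 members, BCL6, beside 2.48% of all tested genes. A log2 fold change below 0 was found in 50.0% of all tested genes. Both knockdown libraries lay below both control libraries for 4 members, PIM1, PIM2, MYC and OSM, beside 12.6% of all tested genes, and above them for 1 member, BCL6, beside 13.3%. Mean CPM differed by -15.4% for PIM1, the smallest difference, by -30.4% for CCND2, the largest of those below 0, and by 67.2% for BCL6. The median log2 fold change was -0.35 over the 8 members and 0.000028 over all tested genes. Without NK scramble replicate 1 this median was -0.19 and 6 members were lower, and without NK shADAR1 replicate 1 it was -0.23. These values describe genes that share the same 4 libraries and are not separate observations. With 2 libraries in each group, 0.333 is the lowest two-sided p that exact permutation allows, so no such test was made for single genes. The hairpin's target, ADAR, was at 655 and 682 CPM in the controls against 575 and 482 CPM after knockdown, with no overlap. The paper reports an effective knockdown in NK-92 cells by quantitative PCR and western blot. In these libraries the log2 fold change of ADAR was -0.34 with a standard error of 0.20, and -0.22 without NK shADAR1 replicate 2. The target itself thus did not pass the test either. Since these are bulk libraries, fewer cells with a transcript and less of it per cell cannot be told apart.

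**Figure D1:**
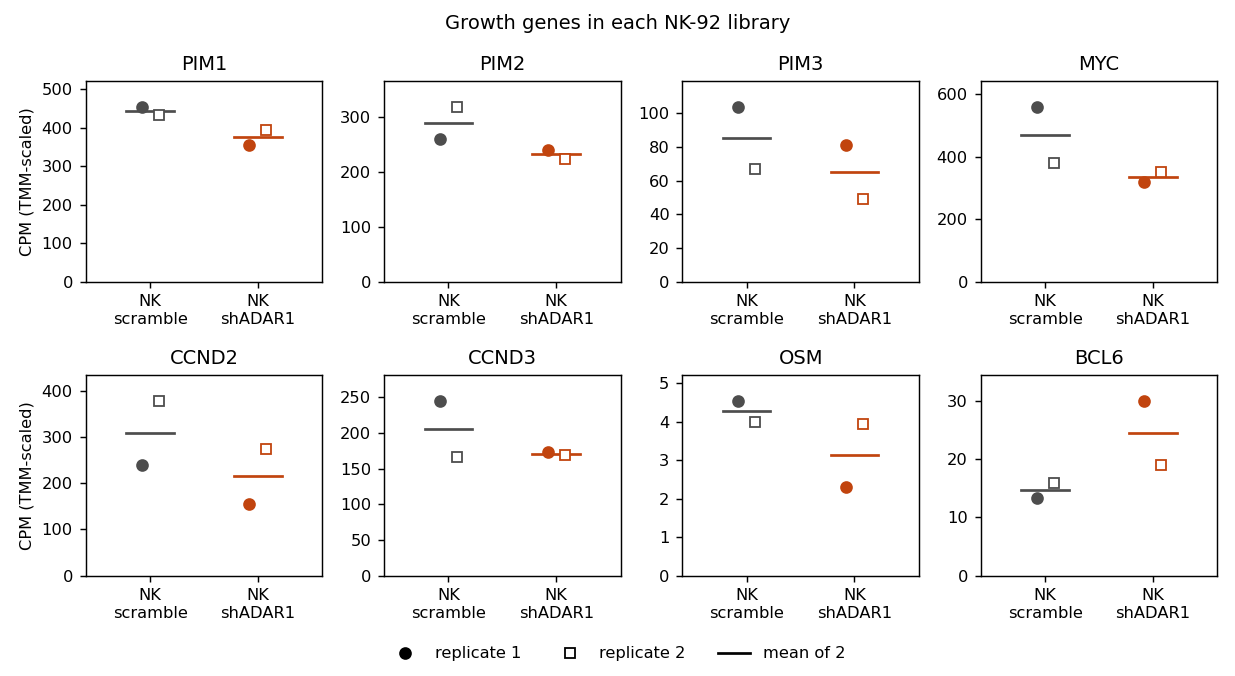
Each panel gives the CPM of 1 growth gene (after TMM scaling, linear axis from 0) in the 4 libraries, with filled circles for replicate 1, open squares for replicate 2 and a line at the mean of 2. PIM1, PIM2, MYC and OSM lie lower in both NK shADAR1 libraries, BCL6 lies higher, and the groups overlap for PIM3, CCND2 and CCND3.

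FPKM, which the authors scaled by transcript length, allows the genes to be compared with each other. In NK scramble cells MYC was the highest at 208 ± 59.6 FPKM (mean ± SD, n = 2). PIM1 followed at 164 ± 8.57 FPKM, PIM2 at 143 ± 16.7 FPKM and CCND3 at 105 ± 29.5 FPKM. CCND2 and PIM3 formed a lower pair at 47.2 ± 14.0 and 40.5 ± 13.0 FPKM. BCL6 and OSM were scarce, at 4.71 ± 0.53 and 2.33 ± 0.32 FPKM. The same order held for the means of NK shADAR1 cells, with 148 ± 3.27 FPKM for MYC, 139 ± 3.26 for PIM1, 118 ± 14.5 for PIM2, 88.2 ± 7.14 for CCND3, 32.8 ± 11.4 for CCND2, 31.3 ± 12.3 for PIM3, 8.38 ± 3.50 for BCL6 and 2.17 ± 0.82 for OSM. The ranges of CCND2 and PIM3 overlapped in both groups, so their order was not separated from the spread. Those of MYC and PIM1 overlapped in NK scramble cells, where MYC was at 250 and 165 FPKM, and not in NK shADAR1 cells. The other neighbours in this order did not overlap in either group, although PIM1 at 157 FPKM and PIM2 at 155 FPKM nearly met in NK scramble replicate 2.

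**Figure D2:**
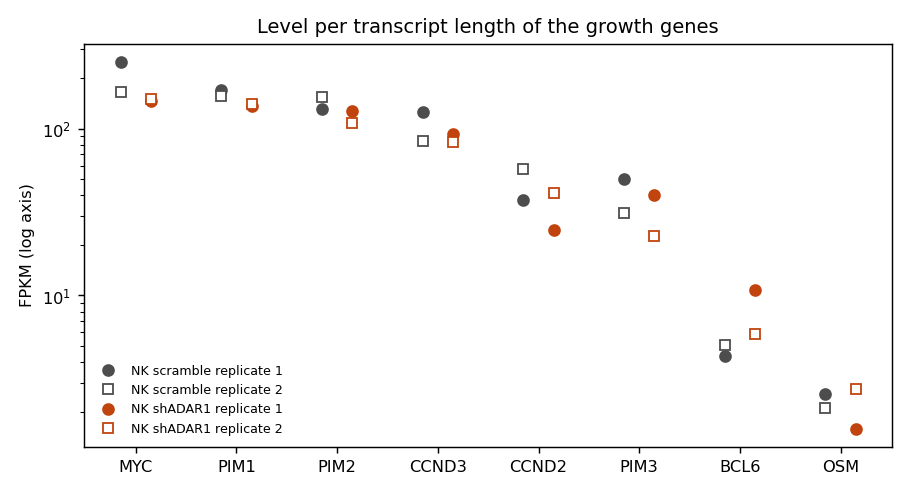
FPKM (log axis) of 8 growth genes in each library, grey for NK scramble and orange for NK shADAR1, filled circles for replicate 1 and open squares for replicate 2. MYC, PIM1, PIM2 and CCND3 lie highest and BCL6 and OSM lowest, and LIF, with 0.007 FPKM in 1 library and 0 in the others, is not drawn.

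The PIM genes encode serine/threonine kinases with overlapping substrates that are active without a further activating step, and they are controlled largely through their abundance. PIM1 lies on chromosome 6 from 37170203 to 37175426 on the plus strand (GRCh38, GENCODE release 29, as for the other genes here; the deposited table has no coordinates and its build is not given in the sources used here). It was measured at 454 and 433 CPM in the controls, and at 356 and 394 CPM after knockdown. The groups did not overlap, and replicates differed by 1.05 times in NK scramble cells and by 1.11 times in NK shADAR1 cells. Its log2 fold change was -0.24 with a standard error of 0.19, and it stayed between -0.32 and -0.17 when single libraries were left out, so PIM1 had the smallest difference of the 3 kinases and the least dependence on any library. PIM2, on chromosome X between 48913182 and 48919024 (minus strand), was at 260 and 318 CPM in the controls against 240 and 224 CPM after knockdown. Here too the groups were apart, and the log2 fold change was -0.32 with a standard error of 0.20, or -0.17 without NK scramble replicate 2. PIM3, on chromosome 22 from 49960513 to 49964080, behaved differently, with 103 and 66.9 CPM in control against 81.0 and 49.1 CPM in knockdown libraries. In both groups replicate 1 was the higher, by 1.55 times in NK scramble cells and 1.65 times in NK shADAR1 cells, and the groups overlapped. The log2 fold change of PIM3 was -0.39 with a standard error of 0.28, but -0.044 without NK scramble replicate 1 and -0.074 without NK shADAR1 replicate 2. It was -0.67 without NK scramble replicate 2 and -0.79 without NK shADAR1 replicate 1, so the value for PIM3 depended on every library.

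The substrates of the PIM kinases that were taken as a list include BAD, a promoter of cell death, FOXO1 and FOXO3, transcription factors held inactive by phosphorylation, and regulators of translation. Of 9 genes, 8 were tested, 7 with lower and 1 with higher fitted levels. Of these 8, 0 passed an unadjusted p of 0.05, beside 2.48% of all tested genes. The median log2 fold change of the list was -0.12, or -0.30 without NK scramble replicate 2. The most abundant was EIF4B, an initiation factor, which overlapped between groups at 383 and 600 CPM in the controls against 452 and 637 CPM after knockdown. EIF4EBP1, the inhibitor of the cap-binding factor, had a log2 fold change of -0.13. AKT1S1, an inhibitor of mTOR complex 1, and CDC25A, a phosphatase that activates cyclin-dependent kinases, were the 2 of 8 whose knockdown libraries both lay below both controls, and 0 lay above, where all tested genes gave 12.6% and 13.3%. The cell cycle inhibitor CDKN1A was nearly absent, with 11 and 1 estimated counts in the controls and 3 and 2 after knockdown.

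MYC lies on chromosome 8 from 127735434 to 127741434. Its control libraries were at 558 and 378 CPM and its knockdown libraries at 319 and 350 CPM. The knockdown libraries were close together and below both controls, while the controls differed from each other by 1.47 times. The means were 468 ± 127 and 335 ± 21.9 CPM (SD, n = 2). The log2 fold change was -0.48 with a standard error of 0.23 (unadjusted p = 0.0605 and adjusted p = 1.00, edgeR). It varied with the control libraries and was -0.18 without NK scramble replicate 1 and -0.74 without NK scramble replicate 2. The related genes MYCN and MYCL had 0 counts in all libraries, so MYC was the only detected gene of the 3.

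MYC binds DNA with MAX, and the MXD proteins, MXI1 and MNT compete for MAX and oppose MYC. In this list of 12 partners and antagonists, 10 were tested, 5 with lower and 5 with higher levels, with -0.062 as the median log2 fold change. The sign of this median was not stable, as it was 0.071 without NK scramble replicate 1, 0.018 without NK shADAR1 replicate 1 and 0.011 in FPKM, and -0.018 without NK scramble replicate 2 and -0.041 without NK shADAR1 replicate 2. MAX overlapped between the groups, with 109 and 131 CPM in control against 87.5 and 124 CPM in knockdown libraries. MLX and MLXIP, of a parallel network that senses sugar, were apart and lower, and MXD3 was apart and higher, with log2 fold changes of -0.21, -0.24 and 0.19. These are 2 and 1 of 10, beside 12.6% and 13.3% of all tested genes. MYCBP2, a large ubiquitin ligase named for binding MYC, was the 1 gene of 10 past an unadjusted p of 0.05, beside 2.48% of all tested genes. Its log2 fold change was 0.68 with a standard error of 0.29, yet its groups overlapped at 114 and 74.5 against 191 and 111 CPM.

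Of 24 genes known as MYC targets in ribosome making and growth, all were tested, 17 with lower and 7 with higher levels. An unadjusted p of 0.05 was passed by 0 of them, beside 2.48% of all tested genes. The median log2 fold change of the list was -0.12 and its members ranged from -0.37 to 0.16. This median was -0.020 without NK scramble replicate 2, -0.030 without NK shADAR1 replicate 1, -0.19 without NK scramble replicate 1 and -0.22 without NK shADAR1 replicate 2. NPM1, a nucleolar chaperone and the most abundant of them at a mean of 1577 FPKM, was at 1833 and 2300 CPM in the controls against 1815 and 2505 CPM after knockdown. LDHA, which makes lactate, had 1538 and 2042 against 1114 and 2179 CPM. In both genes the spread between replicates exceeded the difference between groups. The groups were apart and NK shADAR1 lower for 5 targets, NOP16, RRP9, MYBBP1A, POLR1B and ODC1, and NK shADAR1 higher for GNL3, which is 5 and 1 of 24 beside 12.6% and 13.3% of all tested genes. ODC1, which makes the polyamine putrescine, was at 367 and 351 CPM in control against 225 and 331 CPM in knockdown libraries, and its log2 fold change of -0.37 was the lowest of the list. It was named after its values were seen.

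**Figure D3:**
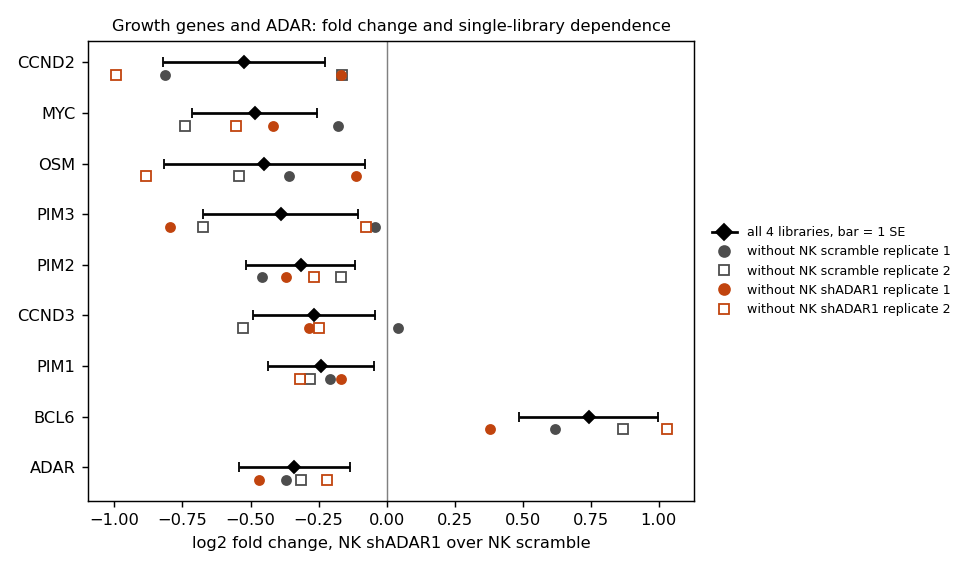
Log2 fold change of NK shADAR1 over NK scramble for the 8 tested growth genes and ADAR, with diamonds and bars of 1 standard error for all 4 libraries, and circles and squares for the fit without 1 library. CCND3 crosses 0 without NK scramble replicate 1, and BCL6 drops from 0.74 to 0.38 without NK shADAR1 replicate 1.

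CCND2 and CCND3 encode the D-type cyclins of lymphocytes. CCND1, the third of the family, is rarely used in these cells and had 7, 9, 2 and 13 estimated counts in the 4 libraries. CCND2, on the plus strand of chromosome 12 from 4273772 to 4305350, was at 240 and 377 CPM in the controls against 155 and 274 CPM after knockdown. In each group replicate 2 was the higher, by 1.57 and 1.77 times, and the groups overlapped. Its log2 fold change of -0.52 (standard error 0.30) was the lowest of the members. It was -0.17 without NK scramble replicate 2 and likewise -0.17 without NK shADAR1 replicate 1. It was -0.82 without NK scramble replicate 1 and -0.996 without NK shADAR1 replicate 2, so each library moved it. The estimated counts of CCND2 were not whole numbers. It overlaps AC008012.1, a gene on the same strand with 202, 202, 167 and 224 estimated counts, so some of its reads could be shared. CCND2-AS1 lies on the opposite strand, and whether the counting used strand is not given in the sources used here. CCND3, on chromosome 6 between 41934933 and 42050357 (minus strand), had 245 CPM in NK scramble replicate 1 and between 165 and 173 CPM in the other 3 libraries. Its log2 fold change of -0.27 (standard error 0.22) became 0.040 without that library and -0.53 without NK scramble replicate 2.

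The partners and opponents of the D-type cyclins in G1 phase were measured as a list of 19 genes, of which 15 were tested. Lower levels were fitted for 11 and higher for 4, with a median log2 fold change of -0.066 and a range from -0.27 to 0.31. Of these 15, 0 passed an unadjusted p of 0.05, beside 2.48% of all tested genes. The median of the list was -0.018 without NK shADAR1 replicate 1 and -0.10 in DESeq2. CDK4, the partner kinase, was at 224 and 233 CPM in the controls against 193 and 225 CPM after knockdown. CDKN2A, whose product p16 inhibits CDK4 and CDK6, was the most abundant of the list at a mean of 230 FPKM. It had 281 and 206 against 231 and 172 CPM, with replicate 1 the higher in both groups. Knockdown libraries lay below both controls for CDK2, CDK6 and E2F2, and above them for no gene of the list, which is 3 and 0 of 15 beside 12.6% and 13.3% of all tested genes.

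OSM and LIF are neighbours on the minus strand of chromosome 22, OSM from 30262829 to 30266840 and LIF from 30240447 to 30246851. OSM drew 181 and 157 estimated counts in the controls and 91 and 147 after knockdown, or 4.53 and 3.996 against 2.31 and 3.94 CPM. Both knockdown libraries were below the controls, but replicate 2 only by a small margin. The log2 fold change was -0.45 with a standard error of 0.37, and it was -0.11 without NK shADAR1 replicate 1 and -0.88 without NK shADAR1 replicate 2. In FPKM the separation was lost. OSM was at 2.56 and 2.11 FPKM in the controls against 1.59 and 2.75 FPKM after knockdown, and a knockdown library had the highest value. An FPKM unit of OSM stood for 70.8 and 74.5 counts in NK scramble and for 57.2 and 53.5 counts in NK shADAR1 libraries. After each library was centred on its median, this conversion varied by 1.34 times for OSM, against at most 1.09 times for any other tested member and a median of 1.055 times over genes with at least 50 counts in every library. The 95th percentile over those genes was 1.37 times, so OSM lay in the upper part of the usual spread and not beyond it. The reason for the change in conversion was not tested. LIF was not detected beyond 1 count in NK scramble replicate 1. It had 0 counts in the other 3 libraries, and 3 counts, the limit that a count of 0 allows, correspond to 0.0763 to 0.0803 CPM there. These limits cover counting error only.

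The rest of the interleukin-6 family was mostly silent. Of 10 genes for cytokines and receptors, 5 were tested and 0 passed an unadjusted p of 0.05, beside 2.48% of all tested genes. The median log2 fold change of the 5 was 0.14. It was -0.16 without NK shADAR1 replicate 1 and -0.018 without NK scramble replicate 2. It was 0.25 without NK scramble replicate 1 and 0.23 without NK shADAR1 replicate 2. The shared receptor chain IL6ST was at 35.9 and 28.8 CPM in control against 38.2 and 33.1 CPM in knockdown libraries. OSMR, the receptor chain specific to OSM, had 4, 1, 0 and 1 estimated counts, and LIFR had 5, 5, 11 and 1. IL11RA, next in level to IL6ST, had 2.30 and 1.63 against 2.87 and 0.937 CPM. IL6 was apart and lower and CTF1 apart and higher in NK shADAR1 cells, at no more than 33 and 17 counts in any library, or 1 and 1 of 5 beside 12.6% and 13.3% of all tested genes.

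BCL6 was the exception in direction. The gene occupies chromosome 3 between 187721377 and 187745727, minus strand. The controls held 535 and 627 estimated counts of it and the knockdown libraries 1180 and 713, and the antisense gene AC072022.2 had at most 2. In CPM these were 13.4 and 16.0 against 30.0 and 19.1, so both knockdown libraries were above both controls, replicate 1 clearly and replicate 2 by less. The means were 14.7 ± 1.81 and 24.5 ± 7.71 CPM (SD, n = 2). Its log2 fold change, 0.74 (standard error 0.26), was the largest in size among the members (unadjusted p = 0.0156 and adjusted p = 1.00, edgeR), and 1.70% of all tested genes were higher at an unadjusted p under 0.05. Without NK shADAR1 replicate 1 the log2 fold change was 0.38, and without NK shADAR1 replicate 2 it was 1.03. BCL6 is also a factor of germinal centre B cells, and the B cell markers were therefore compared. Of 5 markers 2 were tested, and their CPM, summed over all 5, was 24.6 and 22.1 in the controls against 46.2 and 20.1 after knockdown. The sum was highest in the library with the most BCL6. Nearly all of it was PAX5, at 23.4, 21.5, 43.8 and 19.1 CPM. CD79A, the other tested marker, was scarce at 1.18, 0.56, 2.34 and 0.86 CPM, and it too was highest in NK shADAR1 replicate 1. MS4A1 had 0 counts in all 4 libraries. The part of the B cell markers in the result for BCL6 was not tested. Of 8 T cell markers 4 were tested, and they summed to 715 and 911 against 838 and 1028 CPM, mostly CD3E, with CD8A and CD8B at 0 counts in every library. TRAC was at 101 and 122 against 122 and 140 CPM, and TRBC1 at 80.7 and 112 against 124 and 109 CPM. Fitted levels were higher for all 4 tested genes, and the groups of CD3E, TRAC and TRBC1 overlapped. The 6 myeloid markers, of which 3 were tested, summed to 25.2 and 22.1 against 28.7 and 30.6 CPM, mostly ITGAM, with S100A8 at 0.

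The start of BCL6 is shown because it holds a cluster of the palindrome that STAT proteins bind, TTCNNNGAA, which reads alike on both strands. RefSeq windows from 250 bases before to 50 after a start (GRCh38.p14) were at hand for 5 members, PIM1, PIM2, PIM3, CCND3 and BCL6, in 8 windows, and not for MYC, CCND2, OSM and LIF. Of the 8 windows, 1 held the palindrome, the upstream start of BCL6, with 4 matches. The stretch printed runs from 50 bases before the start to 50 after it, at chr3:187745419-187745518 on the minus strand, written 5′ to 3′ with the matches in capitals.
BCL6: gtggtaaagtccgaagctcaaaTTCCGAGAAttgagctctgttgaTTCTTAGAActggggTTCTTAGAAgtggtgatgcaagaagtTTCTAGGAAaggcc
Counted from the start as base 1, with no base 0, the matches begin at -28, -5, 11 and 37 and do not overlap. Over all 35116 windows of the table, 7.66% held at least 1 match and 7 windows, 0.0199%, held 4 or more. The second start of BCL6, at chr3:187736452-187736751, held none. The E-box that MYC and MAX bind, CACGTG, also a palindrome, was in none of the 8 windows and in 7.26% of all windows. A match is a run of letters and does not show that a factor was bound in these cells.

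BCL6 works by recruiting corepressors, and PRDM1 is its antagonist in lymphocyte differentiation. Of 7 such genes 6 were tested, 4 with lower and 2 with higher levels. Of these 6, 0 passed an unadjusted p of 0.05, beside 2.48% of all tested genes. PRDM1 had 96.6 and 112 against 105 and 97.0 CPM, a log2 fold change of -0.044, so the gene that opposes BCL6 was within its replicate spread. BCORL1 was the 1 gene of 6 whose groups were apart, with NK shADAR1 lower, beside 12.6% of all tested genes. The genes nearest to BCL6 in pattern, by the root mean square distance of centred log2 CPM over the 4 libraries among the 9875 genes that averaged 100 or more normalized counts, were SYTL2, ASB16 and SSC5D, at distances of 0.012, 0.022 and 0.052. SYTL2, a granule transport gene, was at 79.0 and 95.9 CPM in control against 180 and 114 CPM in knockdown libraries. With 4 libraries such a likeness describes which library was high and no more.

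The signalling chain above these genes was present in all libraries. Of the 7 genes for the IL-2 receptor, JAK1, JAK3 and STAT5, all were tested, 3 with lower and 4 with higher levels. The groups overlapped for every one of them, while among all tested genes 12.6% were apart and lower and 13.3% apart and higher. The log2 fold changes of the 7 lay between -0.16 and 0.088. IL2RB, the chain shared with the IL-15 receptor, was at 1029 and 983 CPM in the controls against 1279 and 790 CPM after knockdown. IL2RG, the common gamma chain and the most abundant of the list at a mean of 335 FPKM, had 430 and 526 against 461 and 541 CPM. STAT5A had 165 and 137 against 132 and 139 CPM, and STAT5B 155 and 149 against 138 and 166 CPM. Transcript levels do not report whether STAT5 was phosphorylated.

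Other genes known to be induced by STAT5 formed a list of 16, of which 14 were tested, 11 with lower and 3 with higher levels, and the median log2 fold change was -0.27, or -0.10 without NK scramble replicate 2. The list was drawn up with earlier results of these libraries known and is not independent evidence of a direction. CISH and LTA passed an unadjusted p of 0.05, beside 2.48% of all tested genes, and 0 of the 14 were called. LTA, which encodes lymphotoxin alpha, was at 78.9 and 59.4 CPM in control against 14.7 and 41.9 CPM in knockdown libraries. CISH, a feedback inhibitor of IL-2 signalling, had 203 and 151 against 85.1 and 128 CPM. In both genes NK shADAR1 replicate 1 was the lowest library, as it was for PIM1, MYC, CCND2 and OSM, while PIM2 and PIM3 were lowest in NK shADAR1 replicate 2 and CCND3 in NK scramble replicate 2. NK shADAR1 was lower without overlap for 5 of the 14, CISH, LTA, SOCS2, NFIL3 and DUSP5, and higher for DUSP6 alone, beside 12.6% and 13.3% of all tested genes. DUSP5 and MCL1, the most abundant, had log2 fold changes of -0.25 and -0.16, and the groups of MCL1 overlapped.

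**Figure D4:**
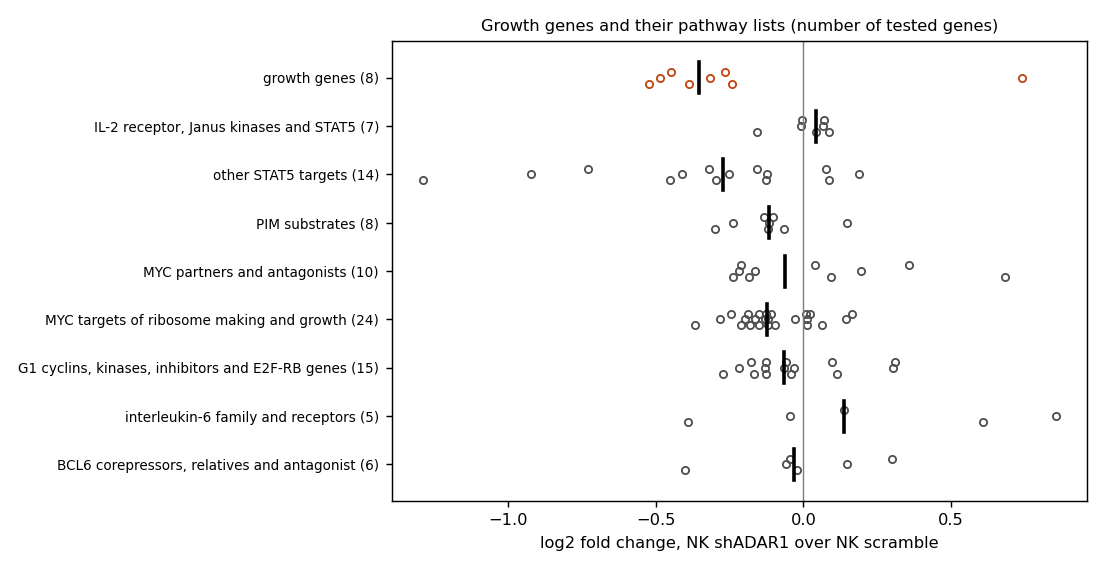
Log2 fold change of NK shADAR1 over NK scramble for each tested gene (circles) of the growth genes and of 8 pathway lists, with the median as a bar and the number of tested genes in parentheses. The growth genes lie between -0.52 and -0.24 apart from BCL6 at 0.74, and genes of the IL-2 receptor and STAT5 lie near 0.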

How the data were processed

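The authors trimmed reads with fastp 0.18.0 per the labels. The aligner, counting program, build and annotation are not given in the sources used here. The authors deposited, per gene and library, estimated counts, which are not normalized and need not be whole, and FPKM, which divide by transcript length and mapped fragments. Of 20323 Ensembl identifiers, 20301 matched a symbol.

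Estimated counts were rounded. Genes were filtered with filterByExpr (minimum count 10) and library sizes scaled with TMM. The quasi-likelihood test came from edgeR 4.0.16 in R 4.3.3, on all 4 libraries, without covariates. P-values were adjusted by Benjamini-Hochberg over 11810 genes. The study used DESeq2, which was run as an alternative (DESeq2 1.42.0). The standard error is the log2 fold change divided by the square root of the F statistic. The scripts were tested on simulated counts. FPKM served for levels between genes and, as log2(FPKM + 0.5), for limma 3.58.1.

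The 9 members, 8 pathway lists and 4 marker lists were chosen with earlier results of these data known. Genes named are the members, ADAR, the 2 most abundant genes of each pathway list, those past an unadjusted p of 0.05, and, after their values were seen, genes of the pathway lists whose groups did not overlap, a few silent genes and single markers. Some genes of the lists are not reported here by name. No set test was used. Motifs were searched in RefSeq windows.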

Additional observations from a re-analysis of the deposited data

How the results depend on the processing

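Lower fitted levels in 7 of the 8 tested growth genes and a higher level of BCL6 were found under 11 of 12 alternatives, and the exception was the fit without NK scramble replicate 1, in which the log2 fold change of CCND3 turned to 0.040, the upper end of its range from -0.53 with single libraries left out. No growth gene was called under any alternative. Over all genes the replicate number as a block gave 13 called genes, and leaving out single libraries gave 1 to 47, with the lone library of a group assumed to vary like the other group. At an unadjusted p under 0.05, DESeq2 gave 2 growth genes (MYC and BCL6) beside 289 of 15605 genes, and no count filter gave 3 (MYC, CCND2 and BCL6) beside 431 of 15605. The replicate block gave 4 (PIM3, MYC, CCND2 and BCL6) beside 681 of 11810 genes, where the fit without it gave 293, and limma on log2(FPKM + 0.5) gave 0 beside 288. Leaving out single libraries gave 1 to 3 growth genes beside 204 to 692 genes in all, and BCL6 was not among them without NK shADAR1 replicate 1. The median log2 fold change of the growth genes was -0.40 to -0.19 with single libraries left out, at its smallest in size without NK scramble replicate 1 and -0.23 without NK shADAR1 replicate 1. Same-numbered libraries of the groups deviated together (r = 0.308 across genes), but the labels do not say that the numbers mark a shared batch. With 2 libraries per group, deviations from the group mean mirror each other, so both pairs give this same value. The count of growth genes whose groups do not overlap was 5 on CPM without TMM factors and 4 in FPKM, where OSM overlapped. The cause of the changes between alternatives was not tested. Low counts limit LIF, which could not be tested.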
